A study of Mus musculus with 605 samples.

Results

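Bulge stem cells (SCs) of the mouse hairy-nevus model at postnatal day 56 (P56) were set against normal bulge SCs at P30, the age at which wild-type (WT) hair follicles are in anagen, the growth phase. The question was which features of the mutant cells do, and which do not, resemble growth-phase bulge cells. All single cells of both plates were eligible. A cell was kept when its listed TPM (transcript abundance corrected for gene length and scaled to a fixed total) summed to at least 750000, mitochondrially encoded genes took no more than 20% of that sum, and 2000 to 7000 genes lay above 0. The rule kept 89 of 94 mutant cells and 84 of 91 WT P30 cells, so 173 of 185, out of 605 cells in the whole series. WT P56 cells, from follicles in telogen, the resting phase, are given beside them (83 of 92 kept).

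The mutant mice carried Tyr-Nras Q61K and K14-H2B-GFP, and the control mice of both ages carried K14-H2B-GFP. The Tyr promoter drives the mutant Nras in the melanocyte lineage, so the bulge cells studied here are neighbours of the mutated cells and are not themselves the cells in which the transgene is meant to act. Cells came from dorsal skin and were sorted as GFP+ CD34+ Pcad-low. They were captured on Fluidigm C1 chips, and chambers that were empty or held several cells were left out under the microscope. Each group was 1 plate. No label ties a cell to an animal, so cells are not replicates of a condition, no test between groups was possible, and genotype, age and plate cannot be told apart.

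Bulge SCs sit below the sebaceous gland and stay quiescent through most of the hair cycle. At anagen onset, the hair germ beneath them divides first, and the bulge itself divides later and briefly before it returns to rest while the follicle goes on growing. BMP signalling and the collagen COL17A1 are known to keep the bulge at rest, and WNT, FGF and Hedgehog signals accompany its activation.

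Throughout, a level is TPM in a cell, given as lowest, median and highest over cells or as a mean. A difference is that of 2 group means on the log2(scaled TPM + 1) scale, where scaled TPM is TPM divided by the cell's total and multiplied by 10000. That scale understates differences of low genes. For every gene given by its range, the ranges of mutant and WT P30 cells overlapped. WT P30 cells listed fewer genes above 0, with a median of 3191.5 (range 2336 to 5650) against 4425 (2596 to 6670) in mutant and 4271 (2205 to 6816) in WT P56 cells. TPM keeps no depth, so the sequencing depth is unknown, and the number of genes detected stands in for it. A share of cells in which a gene is detected moves with that number too, so a low share in WT P30 cells is read beside it. Main results are therefore also given for the 46 mutant and 50 WT P30 cells with 3000 to 4500 genes. The WT P30 plate also differed in base composition. When 443 abundant genes were cut into 5 groups by GC content, the group with the lowest (31.9% to 45.9%) had a median mutant minus WT P30 difference of -0.33, while that with the highest (55.5% to 61.6%) had one of 0.30. The part of GC content in the results below was not tested beyond the adjusted values given.

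The cells were bulge-like by the markers of the sort and the textbook, with departures in 3 of the 4. Krt5, a basal keratin, was at TPM 1 or more in 98.9% of mutant and 95.2% of WT P30 cells. Krt15, the keratin most used to mark the bulge, was found in 85 of 89 mutant cells (95.5%, exact Clopper-Pearson 95% interval 88.9% to 98.8%) but in 65 of 84 WT P30 cells (77.4%, 67% to 85.8%). Cd34 mRNA was found in 46.1% of mutant cells (35.4% to 57%), 11.9% of WT P30 cells (5.86% to 20.8%) and 9.64% of WT P56 cells (4.25% to 18.1%), although every cell was gated on CD34 protein. Such intervals cover counting error only. Krt14, whose promoter drives the GFP of the sort, was found in 73% of mutant cells (62.6% to 81.9%) and 90.5% of WT P30 cells (82.1% to 95.8%). The median difference of the 4 markers was 0.45, yet it turned to -0.15 when only cells with Krt15 were compared, so these markers as a list gave no stable direction.

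Most genes lay close between the plates. The 10164 genes compared were those at TPM 1 or more in 10% or more of 1 group's cells. Of them, 9532 (93.8%) differed by less than 0.5, 74 (0.728%) were higher in mutant cells by 1 or more and 51 (0.502%) were lower by 1 or more, 125 (1.23%) in either direction. The median of all genes was 0.06. The split between the directions depends on the scale: centring on the median gene gave 61 higher and 57 lower, a log2 ratio of mean levels gave 99 and 99, and adjustment for GC content and level gave 45 and 63. With TPM not rescaled to the cell's total, the counts were 3071 and 310 and the median gene moved to 0.62. A pseudocount of 0.1 in place of 1 gave 828 and 190, with a median gene of 0.26. Directions of small differences are read here against these shifts.

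Judged by which WT mean lay nearer, likeness to growth-phase cells was most frequent in genes higher in WT P56 than in WT P30 cells. They are called resting-phase genes here by that contrast alone, and whether they mark rest was not tested. The 15 genes with the largest WT P56 over WT P30 difference were chosen without mutant values, and in all 15 the mutant mean lay nearer to WT P30 than to WT P56. Of these, 10 were within 0.5 of WT P30. Among all genes, 93.8% were within 0.5, so closeness alone is no mark of the list. The distance of WT P56 from WT P30 was the rule that chose these genes, so it is no result. A mutant mean below WT P30 also counted as nearer to it, and only 4 of the 15 lay above WT P30. Col17a1, the hemidesmosome collagen of resting bulge cells, had a median of 114 TPM in mutant cells (range 0 to 1496), 127 in WT P30 cells (0 to 637) and 611 in WT P56 cells (10.03 to 1905). The ranges overlapped, while the mutant minus WT P30 difference was 0.13 and the mutant minus WT P56 difference -1.49. Crip1, a small LIM-domain protein, had a mean of 248 TPM in mutant, 276 in WT P30 and 2091 in WT P56 cells (difference from WT P30 -0.01). Tubb4b, a beta-tubulin, stood at 474, 249.8 and 1078 TPM in the same order (0.48).

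The other members of that set are mostly immediate early genes, transcription factors and feedback regulators that are transcribed within minutes of growth factor or stress signals. Junb, a subunit of the AP-1 transcription factor, had a median of 103 TPM in mutant cells (highest 5586), 222 in WT P30 cells (highest 2598) and 1747 in WT P56 cells (highest 5872). The mutant mean differed from WT P30 by -0.22. Ier2 (0.11), Egr1 (-0.09), Jun (-0.16), Socs3 (-0.08) and Fosb (-0.08) lay as near. The means hide a difference between cells, since Fosb was detected in 23.6% of mutant cells and 55.95% of WT P30 cells, and Socs3, a brake on cytokine signalling, in 41.6% and 52.4%. In both genes the median mutant cell was at 0 and the highest at 1316 and 1528 TPM.

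For Fos, Atf3, Zfp36 and Dusp1 the mutant mean lay further below WT P30, by 1 or more. Fos, the partner of Jun in AP-1, had a median of 90.3 TPM in mutant (range 0 to 12922), 1556 in WT P30 (0 to 14412) and 7039 in WT P56 cells (0 to 32901), and the mutant minus WT P30 difference was -1.90. Atf3, a stress-induced repressor, was detected in 25.8%, 69.05% and 95.2% of cells (-1.77), and Zfp36, which destabilises cytokine mRNAs, had a difference of -1.15. Dusp1, the phosphatase that switches off MAP kinases, was at a mean of 416 TPM in mutant, 1496 in WT P30 and 1526 in WT P56 cells (-2.05). Of the 20 listed immediate early genes, 4 were lower than WT P30 by 1 or more and 0 higher (all genes 0.502% and 0.728%). The list median was -0.26 beside 0.06 for all genes, -0.31 in cells with 3000 to 4500 genes and -0.44 after adjustment for GC content. Averaged over the list in each cell, mutant cells ranged from 0.03 to 3.65 (median 0.45), WT P30 cells from 0.12 to 3.20 (1.39) and WT P56 cells from 0.35 to 3.97 (2.74).

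The promoters of 3 of these genes are printed because their lower levels in mutant cells lead the list and because they hold the letters of the cyclic-AMP and stress response element. They are the 250 bases upstream of the RefSeq start, mouse build GRCm38.p6, 5′ to 3′ on the gene's strand, with the motif TGACG or its reverse complement CGTCA in capitals. Dusp1 lies on the minus strand of chromosome 17 with 3 matches, 2 of which overlap, Fos on the plus strand of chromosome 12 with 2, and Atf3 on the minus strand of chromosome 1 with 1.
Dusp1, chr17:26508473-26508722: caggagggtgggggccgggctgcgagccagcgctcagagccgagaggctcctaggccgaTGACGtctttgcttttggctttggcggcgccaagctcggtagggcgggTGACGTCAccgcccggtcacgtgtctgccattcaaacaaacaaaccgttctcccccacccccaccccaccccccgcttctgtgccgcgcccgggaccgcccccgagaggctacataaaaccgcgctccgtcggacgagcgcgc
Fos, chr12:85473640-85473889: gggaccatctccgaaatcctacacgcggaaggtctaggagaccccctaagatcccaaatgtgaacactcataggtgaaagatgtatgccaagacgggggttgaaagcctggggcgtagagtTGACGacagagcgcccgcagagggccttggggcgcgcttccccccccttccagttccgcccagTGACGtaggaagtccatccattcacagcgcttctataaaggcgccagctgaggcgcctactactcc
Atf3, chr1:191183334-191183583: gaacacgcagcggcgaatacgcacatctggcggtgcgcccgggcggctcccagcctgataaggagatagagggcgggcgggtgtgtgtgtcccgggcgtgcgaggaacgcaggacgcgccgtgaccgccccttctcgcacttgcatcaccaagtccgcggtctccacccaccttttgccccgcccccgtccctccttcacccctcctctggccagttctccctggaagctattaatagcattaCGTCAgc
The motif was in 13 of 21 promoters (61.9%) of the 17 immediate early genes that matched a RefSeq entry, in 5 of 15 (33.3%) of heat shock and chaperone genes, and in 5836 of 32851 (17.8%) of all promoters of that length. A match describes letters and not a bound site.

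Likeness was weaker for genes higher in WT P30 than in WT P56 cells, called growth-phase genes here by that contrast alone. Of the 15 genes with the largest WT P30 over WT P56 difference, the mutant mean lay nearer to WT P30 in 6 and nearer to WT P56 in 9. It was above WT P56 in 13 of the 15 and above WT P30 in 3, and 8 differed from WT P30 by 1 or more. Ucp2, a mitochondrial carrier of the uncoupling family, went beyond the growth-phase level: its median was 9672 TPM in mutant cells (range 0 to 22068), 2168 in WT P30 cells (0 to 17069.8) and 850.4 in WT P56 cells (0 to 7771). The difference from WT P30 was 1.34, and 1.03 after adjustment for GC content. Atp1b3, a subunit of the sodium pump, matched WT P30 (mean 1184 and 1221 TPM, difference -0.02) while WT P56 stood at 370.2 TPM. Fabp5, a fatty acid binding protein of proliferating epidermis, was at 1986, 1598 and 52.01 TPM (0.76).

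Serpinb5, the serpin known as maspin, was the growth-phase gene with the largest shortfall. It ranged from 0 to 2027 TPM in mutant cells (median 462), from 0 to 15988 in WT P30 cells (median 2895) and from 0 to 1957 in WT P56 cells (median 365). Mutant cells were thus at the resting level, with a difference of -2.36 from WT P30 and 0.48 from WT P56. Rab11a, a GTPase of recycling endosomes (-1.56), Uqcrb, a subunit of respiratory complex III (-1.22), Tma7 (-1.18) and the G1 cyclin Ccnd2 (-1.09) were also lower by 1 or more. Ccnd2 had a median of 113 TPM in mutant, 399.9 in WT P30 and 78.9 in WT P56 cells. Dbi (-0.70), Usmg5 (-0.70), Insig2 (-0.76) and Dynll1 (-0.94) lay between both WT means. The median GC content of these 15 genes was 46.8%, against 55.98% for the 15 resting-phase genes, so the direction of both sets goes with that of the GC shift of the WT P30 plate, and its part was not tested. After adjustment for GC content, 9 of the 15 growth-phase genes differed from WT P30 by 1 or more, Dynll1 (-1.10) being the added one.

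**Figure D1:**
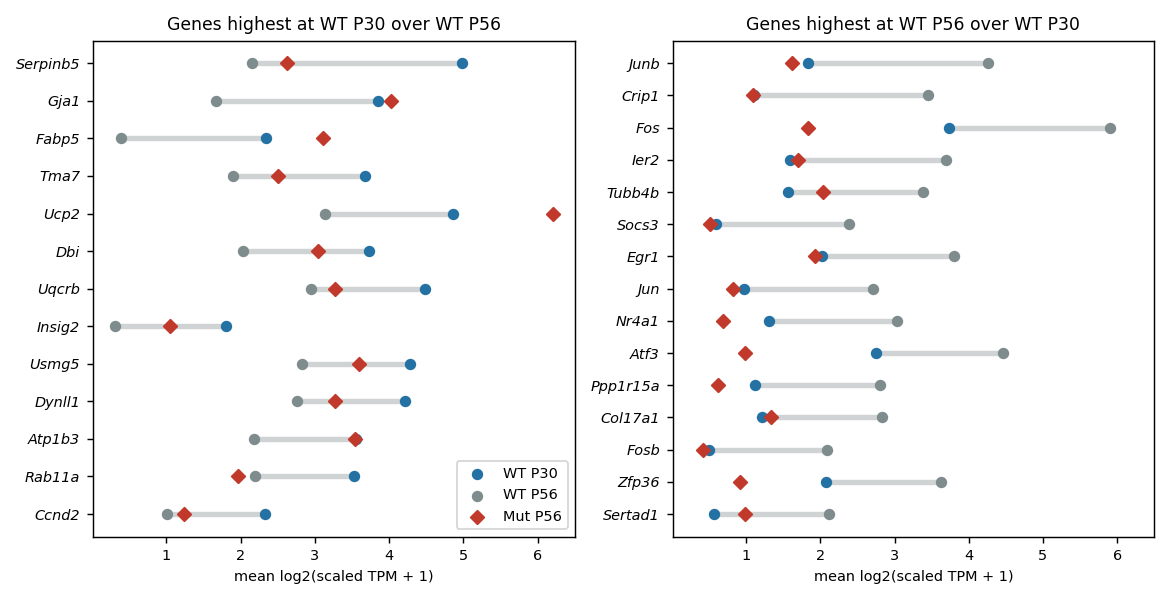
Mean level, on the log2(scaled TPM + 1) scale, of 13 genes highest in WT P30 over WT P56 and the 15 highest in WT P56 over WT P30, in mutant P56, WT P30 and WT P56 cells. The resting-phase genes all have mutant means on the WT P30 side, whereas 7 of the 13 growth-phase genes shown lie nearer to WT P56.

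Gja1, which encodes connexin 43 of gap junctions, shows that an equal mean can hide unlike cells. Its mean was 2041 TPM in mutant and 2722 in WT P30 cells, against 262 in WT P56 cells, and the difference from WT P30 was 0.18. The WT P30 cells were spread more widely, from 0 to 16283 TPM (median 700.2) against 0 to 5299 (median 1916) in mutant cells. The high WT P30 values came mostly from cells without Krt15: the 19 WT P30 cells without it had a Gja1 median of 6149.8 TPM and the 65 with it one of 536. Fabp5 followed the same division, with medians of 3238 and 0 TPM, and so did Gjb2, which encodes connexin 26 (882 and 0 TPM), and Krt17 (9378 and 286 TPM). Krt6a, a keratin by which the study marked the inner bulge, was detected in 10 of these 19 cells and in 9 of the 65. The part of inner bulge cells in the WT P30 values of these genes was not tested. Mutant cells with Krt15 numbered 85, and their Gja1 median was 1916 TPM. The 4 mutant cells without Krt15 had a Gja1 median of 2109 TPM, so Gja1 showed no such division among mutant cells. Krt17 did, with medians of 10146 TPM in these 4 cells and 719 TPM in the 85 with Krt15. Fabp5 lay the same way (1463 and 652 TPM) and Gjb2 the other way (695 and 1454 TPM). These mutant values rest on only 4 cells without Krt15. Against WT P30 cells with Krt15 alone, the mutant difference was 0.77 for Gja1, 1.54 for Fabp5 and 2.51 for Gjb2. Gjb2 and Fabp5 were detected together in 65 of 89 mutant, 30 of 84 WT P30 and 4 of 83 WT P56 cells. The comparison by Krt15 was added after the data were seen.

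To place whole cells between the phases, 50 genes higher in WT P30 and 50 higher in WT P56 were chosen in wells A to D of the 2 WT plates and averaged in cells of wells E to H of all 3. The score is the mean of the first set minus the mean of the second. In 44 mutant cells it ranged from -0.58 to 1.47 (median 0.69), in 40 WT P30 cells from -0.27 to 3.17 (1.62) and in 43 WT P56 cells from -1.87 to 0.59 (-0.60). By the medians, mutant cells lay between the phases: 29 of 44 (65.9%) scored above the highest WT P56 cell, 31 of 44 (70.5%) were inside the 5th to 95th percentile of WT P30 cells (0.51 to 2.90), and 0 exceeded the highest WT P30 cell. The 2 sets behaved differently. For resting-phase genes the mutant median was 1.45, beside 1.41 in WT P30 and 2.69 in WT P56 cells, and 39 of 44 mutant cells were inside the WT P30 percentiles. For growth-phase genes the mutant median was 2.25, beside 2.99 in WT P30 and 2.11 in WT P56 cells, and 42 of 44 mutant cells were below the 5th percentile of WT P30 cells.

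Gene by gene in the same held-out cells, 32 of 50 resting-phase genes had a mutant mean nearer to WT P30 and 17 of 50 growth-phase genes did. The place on this axis rests on which genes are scored. With the immediate early, ribosomal, cell cycle and heat shock genes left out, only 4 of 44 mutant cells (9.09%) were inside the WT P30 percentiles and 10 of 44 (22.7%) above the highest WT P56 cell. When genes were chosen in wells E to H and cells of wells A to D scored, the mutant median was 1.37, beside 1.54 in WT P30 and -0.61 in WT P56 cells, and 37 of 45 mutant cells (82.2%) were inside, so mutant cells then stood close to WT P30. With 100 genes each way, 1 of 44 (2.27%) was inside, and with 25 each way 38 of 44 (86.4%). With genes from the middle 3 of 5 groups by GC content it was 23 of 44 (52.3%). In every one of these settings the mutant median lay between the medians of WT P56 and WT P30.

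**Figure D2:**
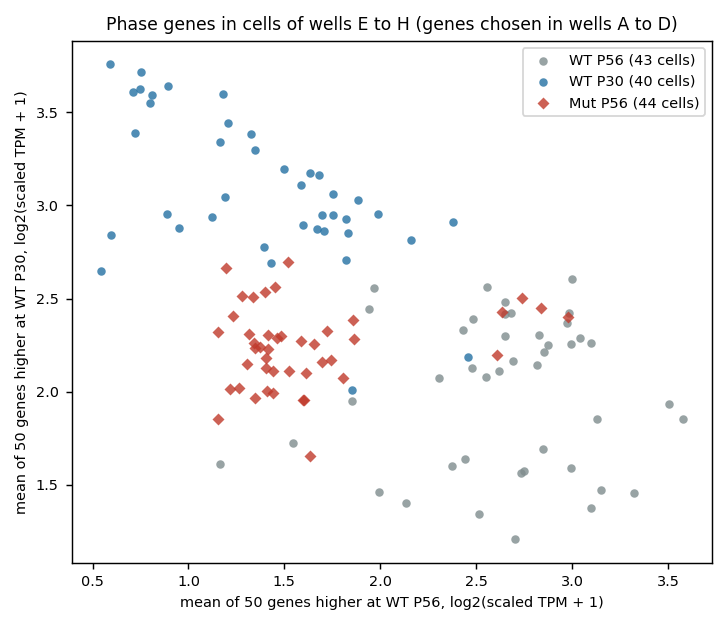
Mean of 50 growth-phase genes (y axis) against mean of 50 resting-phase genes (x axis), both on the log2(scaled TPM + 1) scale, for each cell of rows E to H; each point is a cell of the mutant P56, WT P30 or WT P56 plate. Mutant cells share the low resting-phase values of WT P30 cells and the low growth-phase values of WT P56 cells.

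The 15 genes of largest positive difference from WT P30 include secreted proteins, transporters and enzymes. Cxcl14, a chemokine of the epidermis and follicle, stood first (2.49). It ranged from 0.590 to 4562 TPM in mutant cells (median 1099.8), from 0 to 1837 in WT P30 cells (median 68.3) and from 0 to 1686 in WT P56 cells (median 245). Gnmt, the glycine N-methyltransferase that consumes S-adenosylmethionine, was detected in 64 of 89 mutant cells (71.9%) and 8 of 84 WT P30 cells (9.52%), with means of 1162 and 97.0 TPM (2.12). The WT P56 mean was 7.50 TPM, so neither normal phase held Gnmt at the mutant level. The genes higher by 1 or more made up 0.728% of all genes tested, and the 15 described here are those of largest difference, from 1.63 to 2.49.

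Among them were 3 genes of metabolite carriers. Slc7a8, a transporter of neutral amino acids, had means of 474 TPM in mutant, 12.6 in WT P30 and 6.44 in WT P56 cells (1.96), and its partner Slc3a2, the heavy chain of such transporters, had means of 1745, 373 and 302 TPM (1.76). Slc39a10, a zinc importer, was at 800.4, 34.1 and 7.05 TPM (1.92). In all 3 genes the WT phases differed from each other by no more than 0.25. Of 11 amino acid transporters tested, only 2, Slc7a8 and Slc3a2, were higher by 1 or more and 0 lower (0.728% and 0.502% of all genes). Both were chosen for their difference in these same cells, so that count is no separate support for the list. Its median was 0.39 beside 0.06 for all genes. In 31 of 89 mutant cells the mean over the list, which includes both genes, exceeded the highest WT P30 cell. Among 16 enzymes of methionine, folate and serine metabolism, Gnmt, Cbs, the first enzyme of transsulfuration (1.63), and Mat2a, which makes S-adenosylmethionine (1.27), were past 1, and 0 were lower by as much (median 0.36). The mean over this list exceeded the highest WT P30 cell in 41 of 89 mutant cells. In cells with 3000 to 4500 genes the medians of both lists were 0.53 and 0.21, and after GC adjustment 0.20 and 0.25.

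Secreted and matrix genes were also among them. Timp3, an inhibitor of metalloproteinases bound to the matrix, had means of 613, 57.2 and 22.2 TPM in mutant, WT P30 and WT P56 cells (1.96). Igfbp7 (1.78) and Igfbp4 (1.69), binding proteins of the insulin-like growth factor system, were detected in 75.3% and 76.4% of mutant cells and in 8.33% and 16.7% of WT P30 cells. Of 16 basement membrane and matrix genes tested, Timp3, the proteoglycan Bgn (1.61) and Col18a1 (1.25) were higher by 1 or more and 0 lower (0.728% and 0.502% of all genes; list median 0.30). Vdr, the vitamin D receptor that the hair cycle needs, had a median of 356 TPM in mutant, 0 in WT P30 and 55.1 in WT P56 cells (1.78). Col18a1 and Vdr are also 2 of the 5 genes by which the study marked the outer bulge, of which 2 were past 1 and 0 below -1. The paper cites earlier work for that signature and shows these genes in clusters of the same cells. Whether these cells guided which members it named is not stated, so the count is not taken as independent evidence. The others were Marcksl1 (1.70), the chromatin protein Cbx3 (1.69) and the cytokine receptor Il11ra1 (1.63).

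A gap junction gene and a redox gene make up the remainder of the 15. Gjb2 was at a median of 1379.8 TPM in mutant cells (range 0 to 4036) and of 0 in WT P30 (highest 5621) and WT P56 cells (highest 138). The difference from WT P30 was 2.08, and the highest WT P30 cell exceeded every mutant cell. Sod1, the cytosolic superoxide dismutase, was at 889, 204 and 715 TPM (1.79), so in this gene WT P30 was the low plate and mutant cells were near WT P56 (0.39). Among 21 glutathione and redox genes, Sod1, the glutathione synthesis subunit Gclm (1.38) and the transferase Gstm1 (1.11) were past 1. Lower by as much were 0 (0.728% and 0.502% of all genes). The list median was 0.32 (0.13 after GC adjustment).

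**Figure D3:**
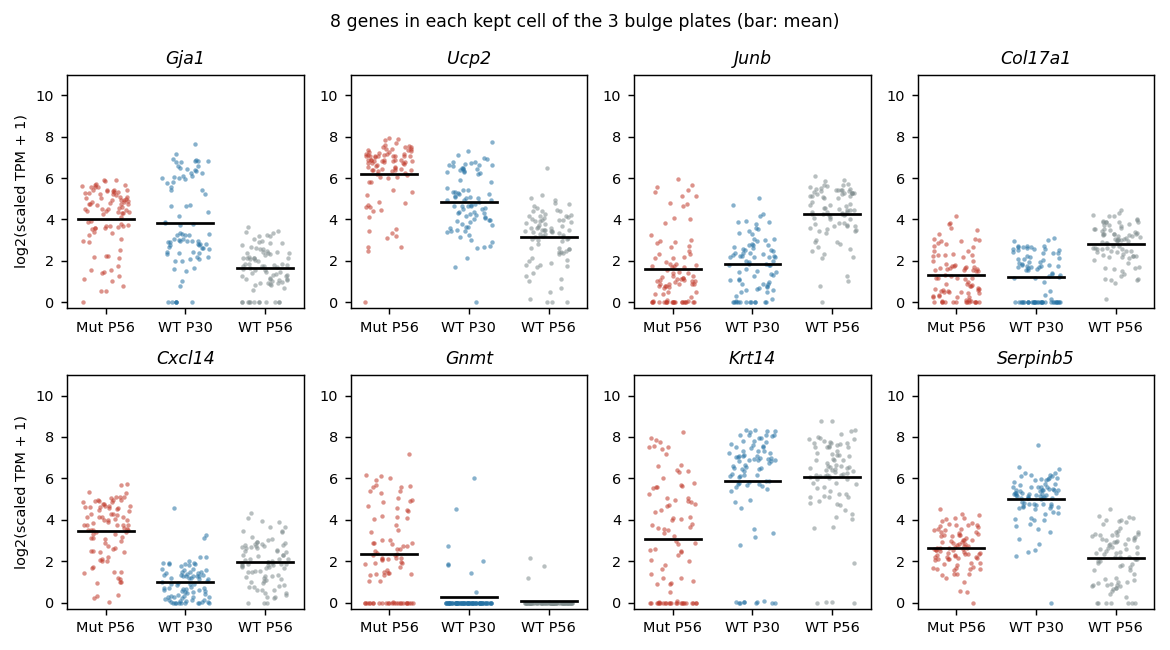
Level of 8 genes in each kept cell, log2(scaled TPM + 1), for mutant P56, WT P30 and WT P56 cells; each point is a cell and each bar the group mean. Cxcl14 and Gnmt stand highest in mutant cells, Junb and Col17a1 are low in mutant and WT P30 cells, Serpinb5 is high only in WT P30 cells among these 3 plates, and Krt14 is lowest in mutant cells.

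Among the genes open to naming, which leave out mitochondrial genes, Krt14 had the largest negative difference from WT P30. It ranged from 0 to 26594 TPM in mutant cells (median 587), from 0 to 26189.8 in WT P30 cells (median 8396) and from 0 to 40373 in WT P56 cells (median 7224). The difference was -2.78, yet its usual partner Krt5 was higher by 0.47. Lgals3, a galectin of epithelial cells, was detected in 32.6% of mutant, 94.05% of WT P30 and 89.2% of WT P56 cells (-2.72). Ly6d (-2.44), a membrane-anchored Ly6 protein, Dmkn, or dermokine (-2.05), and Fam25c (-1.97) were detected in 22.5%, 25.8% and 15.7% of mutant cells and in 66.7%, 79.8% and 69.05% of WT P30 cells. Krt14, Lgals3 and Fam25c differed between WT P30 and WT P56 by -0.21, 0.41 and 0.32, so in these genes mutant cells lay apart from both phases.

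Annexins bind membranes when calcium rises, and 3 of them were among the genes of largest negative difference. Anxa1 had a median of 15.1 TPM in mutant, 1634 in WT P30 and 585 in WT P56 cells (-2.46), and Anxa2 of 515, 3543 and 2031 TPM (-2.41). Anxa8 was detected in 19.1%, 75% and 87.95% of cells (-1.88). Of 16 annexin and S100 genes tested, 4 were lower by 1 or more, the fourth being S100a11 (-1.60), and 0 were higher (0.502% and 0.728% of all genes). The list median was -0.47, -0.37 in cells with 3000 to 4500 genes and -0.67 after GC adjustment. Other annexins were detected more often in mutant than in WT P30 cells, among them Anxa3 (51.7% and 16.7%) and Anxa6 (46.1% and 25%), which were picked after their values were seen. Tmsb4x, thymosin beta 4, which sequesters actin monomers, was at 928, 3913 and 2481 TPM (-2.47). Of 29 actin cytoskeleton genes, 4 were higher by 1 or more, with Actb (1.46) and Tpm1 (1.27) first, and 2 were lower, Tmsb4x and Crip2 (-1.24), so the list had no common direction (median 0.06).

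Heat shock genes included members with large negative differences. Hspb1, the small heat shock protein HSP27 of keratinocytes, ranged from 0 to 10149.6 TPM in mutant cells (median 777), from 96.1 to 35794 in WT P30 cells (median 4996) and from 0 to 15126 in WT P56 cells (median 1954). The difference was -2.52. Hspa1a, the inducible HSP70, had means of 234, 1609.5 and 505 TPM (-1.78), and Hsp90aa1 (-1.51) and the cochaperone Dnajb1 (-1.15) were also past -1. Of 13 heat shock and chaperone genes, 4 were lower by 1 or more and 0 higher (0.502% and 0.728% of all genes), while 4 lay above 0. The list median was -0.85, and -0.87 in cells with 3000 to 4500 genes. The remaining genes of largest negative difference were Nfkbia, the inhibitor of NF-kB (-1.94), Apoe, the lipid carrier (-1.80, and -1.05 in cells with 3000 to 4500 genes), and those already given. Apoe was higher in WT P30 than in WT P56 cells by 0.90, with means of 8534, 32545 and 12493 TPM in the 3 plates.

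All 30 genes of largest difference kept a difference of 1 or more in cells with 3000 to 4500 genes, in each part of the plates (wells A to D, wells E to H), and after GC adjustment. Over 450 values under 15 alternatives, 0 of the 30 changed direction. These alternatives share the same 2 plates and do not separate genotype from age or plate. The 30 genes were chosen for large differences in these same cells, so their kept direction is no independent support. Counts over lists that hold any of these 30 genes carry the same choice.

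Growth machinery gave a mixed picture. Cytosolic ribosomal protein genes were higher in mutant than in WT P30 cells, with 10 of 80 past 1 and 0 lower by as much (0.728% and 0.502% of all genes), a median of 0.57 and 0.30 after GC adjustment. Against WT P56, however, the same median was -0.19. Rplp2, a protein of the ribosomal stalk, had means of 2216, 770.3 and 2229 TPM in mutant, WT P30 and WT P56 cells, so it was WT P30 that stood low. Nuclear-encoded oxidative phosphorylation genes had a median of 0.16, with 2 of 72 past 1 in each direction, which was 0 to 2 decimals in cells with 3000 to 4500 genes. All 8 mitochondrial carriers and uncoupling proteins tested were above 0 (75.3% of all genes were), with a median of 0.51 and 1 past 1, Ucp2. Translation factors had a median of 0.33, which was 0.01 in cells with 3000 to 4500 genes.

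**Figure D4:**
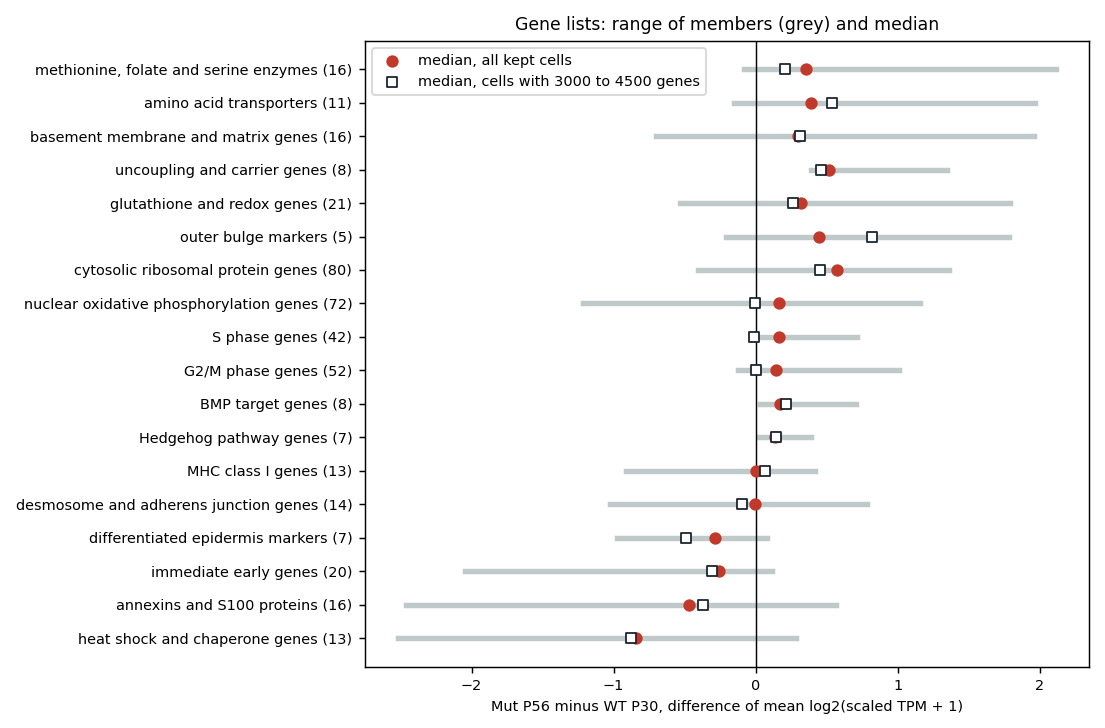
Mutant P56 minus WT P30 difference for 18 gene lists, on the log2(scaled TPM + 1) scale: the grey line spans the members, the red mark is the list median and the white square the median in cells with 3000 to 4500 genes. Heat shock, annexin and immediate early genes lie below the median of all genes (0.06), and ribosomal, amino acid transporter and methionine genes above it.

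Cells with many G2/M genes detected were more frequent among mutant cells. A cell was counted as cycling when at least 20 of 54 G2/M genes were at TPM 1 or more: 18 of 89 mutant cells (20.2%, exact 95% interval 12.4% to 30.1%), 3 of 84 WT P30 cells (3.57%, 0.743% to 10.1%) and 3 of 83 WT P56 cells (3.61%, 0.752% to 10.2%). WT P30 and WT P56 cells thus gave nearly the same share although their phases differ. Medians over cells were 8 (mutant), 7 (WT P30) and 9 (WT P56) genes. Cycling mutant cells also had more genes above 0, with a median of 5952 against 4180 in the rest. Among cells with 3000 to 4500 genes the shares were 2 of 46 mutant (4.35%) and 1 of 50 WT P30 cells (2%), but this window leaves out 16 of the 18 cycling mutant cells, so it cannot show whether the share differs at equal numbers of genes. Asking for 10 genes in place of 20 gave 40.4% for mutant, 17.9% for WT P30 and 38.6% for WT P56 cells. In rows A to D the mutant and WT P30 shares were 17.8% and 2.27%, and in rows E to H 22.7% and 5%.

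The main differences from WT P30 were also present in the mutant cells that were not cycling. In these 71 cells Cxcl14 differed from WT P30 by 2.70 (1.65 in the 18 cycling cells), Ucp2 by 1.36 (1.27) and Krt14 by -2.39 (-4.30). Igfbp4 (1.99 and 0.52) and Il11ra1 (1.91 and 0.50) differed more from WT P30 in the other cells than in the cycling ones. Cdk1, the mitotic kinase, differed by 0.02 in the other cells and by 2.93 in the cycling ones, whereas Cdk4, the G1 kinase, differed by 1.03 and 2.55. Cdkn1a, the cell cycle inhibitor p21, was detected in 25.8% of mutant, 83.3% of WT P30 and 80.7% of WT P56 cells (-1.64). Of 42 S phase and 52 G2/M genes tested, 0 and 1 were higher by 1 or more (0.728% of all genes), and the list medians were 0.16 and 0.14.

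**Figure D5:**
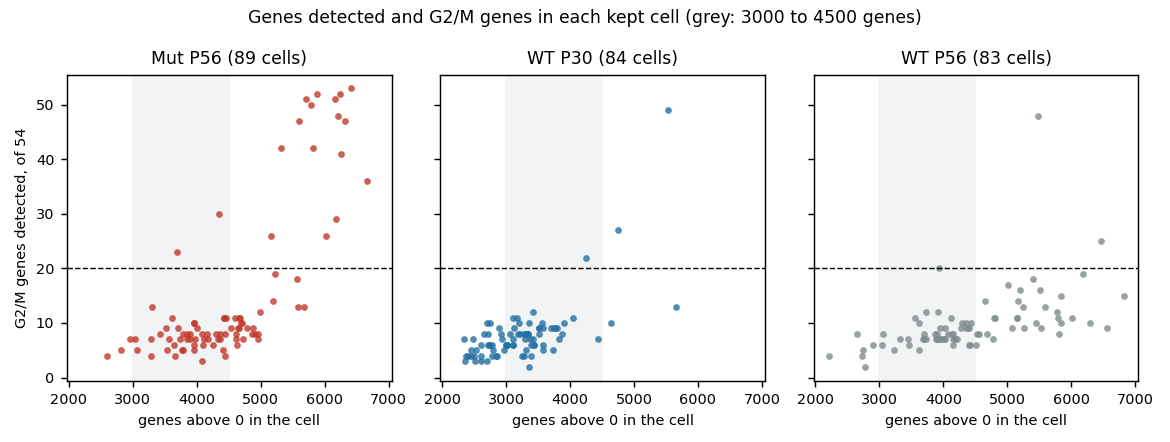
Number of the 54 G2/M genes at TPM 1 or more (y axis) against the number of genes above 0 (x axis) in each cell of the 3 plates, with a dashed line at 20 genes. Of mutant cells, 18 lie on or above the line, against 3 in each WT plate, and they are mostly cells with many genes above 0.

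Markers of bulge state and activation were divided between likeness and unlikeness to WT P30. Of 10 quiescence markers named by the study, 3 were tested here, Col17a1 (0.13), Bmp2 (-0.07), the BMP ligand of the resting follicle, and Nfatc1 (-0.02), a transcription factor of quiescent bulge cells. Bmp2 was detected in 4.49% of mutant, 11.9% of WT P30 and 62.7% of WT P56 cells, and Nfatc1 in 10.1%, 15.5% and 55.4%, so mutant and WT P30 cells shared their low levels. The other 7 were detected in under 10% of the cells of both groups. These lists were picked by the study partly on these cells and are not independent evidence. Cux1, a homeobox gene that the study used as a mutant marker, was detected in 77.5% of mutant, 38.1% of WT P30 and 60.2% of WT P56 cells (1.38). Fgf5, the ligand that ends anagen, was detected in 55.1% of mutant, 9.52% of WT P30 and 0 of 83 WT P56 cells, where a floor of 3 cells is 3.61% (0.80). Msx2, a homeobox gene of the hair lineage, differed by 0.51. The study's markers of the inner bulge, the layer left from the last hair cycle, were lower or near: Chit1 by -0.64, Krt6a by -0.53 and Krt80 by -0.21.

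Of 11 hair germ and activated progenitor genes tested, 0 passed 1 in either direction and 7 were within 0.5 of WT P30 (1.23% and 93.8% of all genes). Their median was 0.14 beside 0.06 for all genes. At a share of 1.23%, a count of 0 or 1 past 1 in this and the short lists below is no result about them. Those of largest difference were Dlx3, Lgr5 and Cdh3. Lgr5, the WNT-amplifying receptor of activated follicle SCs, was detected in 80.9% of mutant, 9.52% of WT P30 and 42.2% of WT P56 cells (0.84). Dlx3 (0.88), a homeobox gene of hair differentiation, and Cdh3 (0.78), which encodes P-cadherin, lay similarly. Because the gate took Pcad-low cells, Cdh3 is close to a quantity that set the sort. Tbx1, a bulge transcription factor, was the member past 1 (1.08) among 13 such factors (median 0.14). Of 7 Hedgehog pathway genes tested, 0 passed 1 (1.23% of all genes, list median 0.13). Of 8 BMP targets tested 0 passed 1 and 8 were above 0, as were 75.3% of all genes (median 0.17). The largest differences were those of Id3 (0.70) and Id1 (0.67), both of which were higher still in WT P56 cells, with means of 654, 396 and 1046 TPM and of 259, 138 and 764 TPM in mutant, WT P30 and WT P56 cells. The FGF receptors Fgfr3 (0.54) and Fgfr1 (0.43) had means of 73.7, 10.2 and 74.1 TPM and of 46.4, 3.55 and 71.9 TPM in the same order, lowest in WT P30 cells.

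Markers of other cell types were found in both groups. At least 2 melanocyte, immune, fibroblast, endothelial or differentiated epidermis markers of 1 list were at TPM 10 or more in 41 of 89 mutant and 64 of 84 WT P30 cells. None of 8 melanocyte markers passed the 10% filter, and their summed TPM had a median of 0 in both groups, with 260 the highest in a mutant cell and 92.9 in a WT P30 cell. For immune markers 1 of 8 passed and the median sum was 0 in both. Summed fibroblast markers reached 2447 TPM in a mutant cell and 17774 in a WT P30 cell, with 5 of 8 tested and a list median of -0.02. Differentiated epidermis markers were more frequent in WT P30 cells: their summed TPM had a median of 65.4 in mutant, 538 in WT P30 and 131 in WT P56 cells, and 7 of 8 passed the filter with a list median of -0.29 and 0 past 1. In cells with 3000 to 4500 genes that median was -0.49. Of the 7 tested members 6 lay below 0, from Sbsn, suprabasin of the upper epidermis (-0.97), to the keratins Krt10 (-0.20) and Krt1 (-0.04). At least 2 markers of that list were at TPM 10 or more in 34 mutant and 60 WT P30 cells. The same count was 43 and 22 cells for sebaceous gland, 33 and 39 for infundibulum and isthmus, 30 and 29 for inner root sheath and hair shaft, 15 and 35 for companion layer and inner bulge, and 15 and 11 for Schwann cell markers. Medians of these 5 lists lay between -0.21 and 0.07, with 0 members past 1 (1.23% of all genes were, in either direction). The part of these 5 lists in the other differences was not tested. Leaving out cells with at least 2 melanocyte, immune, fibroblast, endothelial or differentiated epidermis markers of 1 list kept 48 mutant and 20 WT P30 cells. Cells with markers of the 5 lists above were not left out by that rule. It gave 79 genes higher and 62 lower. Serpinb5 then differed by -1.84, Ly6d by -2.24 and Anxa1 by -1.83. With only 20 WT P30 cells and those 5 lists left in, this comparison cannot decide the part of other cell types.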

How the data were processed

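Single bulge cells from dorsal skin were profiled on 3 plates. The authors aligned reads with STAR 2.4.2 (per the submitters' processing notes) to mm10 and estimated gene levels with RSEM, and they deposited TPM per gene and cell. Their methods name FPKM for some steps but give the single-cell limits in TPM, and the column totals fit TPM. Values of 31002 gene identifiers were first averaged by symbol. TPM was then divided by the cell's total, multiplied by 10000 and transformed as log2 after adding 1. Genes at TPM 1 or more in 10% of the cells of either group entered. The genes named are the 15 of largest difference each way and the 15 each way by which the WT phases differ (25% filter, without mitochondrial, ribosomal, sex-linked and predicted genes), and, of the lists, the bulge, study and other-cell markers and up to 4 members of largest difference or with the list's known role. Of the growth-phase genes, 2 enter the counts but are not reported here by name. The gene lists and the cells were chosen with earlier results of these data known. With 1 plate a group, no p-value was computed. Shares given with an interval carry exact 95% intervals, and a share of 0 is given with a floor of 3 cells. No doublet caller was run, since chambers were inspected under the microscope. Promoters are RefSeq, GRCm38.p6, and GC content is from GENCODE M21 transcripts. Scripts were tested on simulated data. Python 3.11.15, NumPy 2.4.6, pandas 2.3.3 and SciPy 1.17.1 were used. Depth is unknown. Alternatives changed the filter, scaling, pseudocount, averaging, cells and score genes; adjustment for GC content and restriction to cells with Krt15 were added after the data were seen.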

Additional observations from a re-analysis of the deposited data

How the results depend on the processing

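No paired analysis was possible because each group is 1 plate with no replicate numbers and no result comes from a test; for the same reason no replicate could be left out. Of 884 medians of 59 lists under 15 alternatives, 692 stayed within a fixed limit, 189 moved past it and 3 reversed. The limit was a shift of 0.1 or more that also passed a set ratio or changed sign. It was not a measured spread between members or cells. A reversal was a change of sign in a list with a larger main median. All 3 were of the bulge markers (0.45). They stood at -0.16 by a log2 ratio of means and at -0.15 in cells with Krt15. In cells matched on immediate early genes (15 mutant and 42 WT P30 cells) they stood at -0.21. The cause of each move was not tested. Without rescaling, the pseudocount of 1 was also smaller beside the cell's total. In that setting 3071 genes were higher and 310 lower. Medians were 1.005 for S phase, 0.90 for G2/M, -1.25 for immediate early, -1.44 for heat shock, -0.94 for annexin and S100, 1.56 for amino acid transporter and 2.005 for methionine genes. A pseudocount of 0.1 gave 828 and 190, and 0.52, 0.47, -0.65 (immediate early), -0.79 (annexin and S100), 0.89 and 1.06. The log2 ratio of means gave 99 lower genes, and GC adjustment 45 higher genes and medians of -0.44 for immediate early, 0.20 for amino acid transporter and 0.30 for ribosomal genes. In cells with 3000 to 4500 genes S phase and G2/M medians over members passing the filter there were -0.0303 and -0.0044. Without cycling cells the S phase median, over the 30 members that passed the filter there, was 0.0261 and that of amino acid transporters 0.59. Amino acid transporters were at 0.20 in cells matched on immediate early genes, where annexins were at -0.30, and at 0.23 in cells with Krt15. Without cells with markers of other types, immediate early genes were at -0.46. The mutant share of cycling cells was 40.4% with 10 genes required and 4.35% in cells with 3000 to 4500 genes; that of WT P30 cells was 17.9%, and 0 of 20 without cells of other types, where a floor of 3 cells is 15%. Of held-out mutant cells, 86.4% (25 genes each way), 2.27% (100 each way), 9.09% (without immediate early, ribosomal, cell cycle and heat shock genes) and 52.3% (middle GC content) were inside the WT P30 percentiles; 80% (wells A to D and E to H exchanged), 86.4%, 31.8% and 22.7% exceeded the highest WT P56 cell.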

Other observations

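Mitochondrially encoded genes did not move together. Of 13 tested, 1 was higher in mutant than in WT P30 cells by 1 or more and 2 lower, beside 0.728% and 0.502% of all genes. The median was -0.39, and -0.11 in cells with 3000 to 4500 genes. The gene mt-Co3, a subunit of cytochrome oxidase, had means of 842 TPM in mutant, 4835 in WT P30 and 1420 in WT P56 cells (difference -3.53), while mt-Atp6, a subunit of ATP synthase, differed by 1.14.

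Immune and adhesion genes added few large differences, and 1.23% of all genes were past 1 in either direction. Ccl27a, a chemokine of keratinocytes, was lower in mutant cells by 1 or more (-1.34), as Cxcl14 was higher. The beta-2-microglobulin gene B2m differed by -0.91 and no MHC class I gene of 13 passed 1. Dsp, which encodes the desmosome protein desmoplakin, was the member past -1 (-1.03) among 14 desmosome and adherens junction genes (median -0.01). Porcn, which modifies WNT ligands for secretion, was past 1 (1.08) among 9 WNT ligand genes tested (median 0.01). The 15 circadian clock genes lay between -0.56 and 0.13 (median -0.03), and the 17 cholesterol synthesis genes between -0.30 and 0.27.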
